A study of Mus musculus with 15 samples.

Results

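Ribosome biogenesis factors are the proteins that make, modify, cut and fold ribosomal RNA and assemble it into the small and large ribosomal subunits. A set of 48 such genes, listed by name, was followed through an osteoblast differentiation experiment in the mouse line MC3T3. Members were chosen by gene symbol, and each gene was represented by its probe set of highest mean log2 signal over all 15 arrays. That mean level is the only measured value the rule used, and the names were drawn up with earlier results of these arrays known. Of the 48 names, 42 had a probe set with that single symbol, among 8251 genes with one in all, and 41 passed a filter on mean signal. Wdr12 fell under the filter, with 1.5 to 17.3 intensity units over the 15 arrays. Dkc1, Npm3, Lyar, Nop14, Nob1 and Mrto4 are not analysed here.

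MC3T3 clone 1b cells are a line of osteoblast precursors from mouse calvaria, and total RNA was measured on single-colour oligonucleotide arrays. There were 5 groups of 3 arrays. Treated cultures received GP (beta-glycerol phosphate), ascorbic acid and the growth factor BMP-2 and were sampled at day 1 and day 3; GP cultures received GP alone and were sampled at the same days; medium cultures were sampled at day 0. BMP-2, bone morphogenetic protein 2, drives precursors towards bone, ascorbic acid helps enzymes that hydroxylate collagen, and GP supplies phosphate for mineral. Ascorbic acid and BMP-2 were always given together, so their effects cannot be told apart. Medium cultures were sampled only at day 0, so in comparisons with them the additions and the time in culture cannot be told apart. All groups share 1 cloned line. Each array carries a prep number from 1 to 3, and the labels do not say whether preps were grown separately. The p-values therefore reflect only how these 15 samples varied, possibly for technical reasons.

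Of the 6 osteoblast lineage markers with a probe set, 5 passed the signal filter, against 0 of 6 endothelial and 0 of 4 adipocyte markers. The bone matrix genes Col1a1, Col1a2 and Sparc were the brightest of them, with group means of 2731.7 intensity units or more. Alpl, or alkaline phosphatase, averaged 109 and 630 units in treated cultures of days 1 and 3, against 20.2 and 24.97 in GP cultures and 22.5 in medium. Cdh11, a cadherin of the lineage, averaged 248 and 160 units in treated cultures, against 334 and 378 in GP cultures, and Ibsp was under the filter. Of the other marker lists, 2 of 8 macrophage and osteoclast genes, 1 of 7 epithelial genes and 3 of 7 skeletal muscle genes passed it. Prep 3 arrays had 11.7% to 13.9% of values at the floor of 2.8 units, against 7.67% to 9.72% in prep 1 and 6.97% to 8.54% in prep 2. The GP day 3 array of prep 3 had a ratio of 2.11 between the 3′ and 5′ actin control signals, which reflects RNA integrity, and the remaining 14 arrays had 1.00 to 1.34.

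Ribosome assembly starts in the nucleolus, where RNA polymerase I transcribes a long precursor RNA. Small nucleolar ribonucleoproteins then modify it: box C/D particles guide methylation of ribose and box H/ACA particles guide the conversion of uridine to pseudouridine. Separate sets of factors cut and fold the small-subunit and large-subunit parts, and many of these genes are known targets of the transcription factor Myc in growing cells. In bulk RNA, more RNA per cell and more cells of a kind cannot be told apart.

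Most of the 41 genes had higher signal in treated than in GP cultures at both days. At day 1, 37 of 41 differences were above 0, with a median log2 difference of 0.40, a 1.32-fold change, while the median over all 7453 tested probe sets was -0.0040 and 49.4% of them were above 0. At day 3, 39 of 41 were above 0, with a median of 0.46, a 1.37-fold change, against -0.00043 and 49.97% over all tested probe sets. The differences were small gene by gene: at day 1 they ran between -0.24 and 1.06 and at day 3 between -0.19 and 1.04. Within preps 1, 2 and 3 the median differences were 0.35, 0.44 and 0.31 at day 1, and 0.41, 0.49 and 0.38 at day 3. At day 1, 30 genes were higher in treated cultures within all 3 preps, at day 3 33 were, and 27 were so at both days. No share over all probe sets stands beside these 3 counts, so they only describe the 41 genes.

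**Figure D1:**
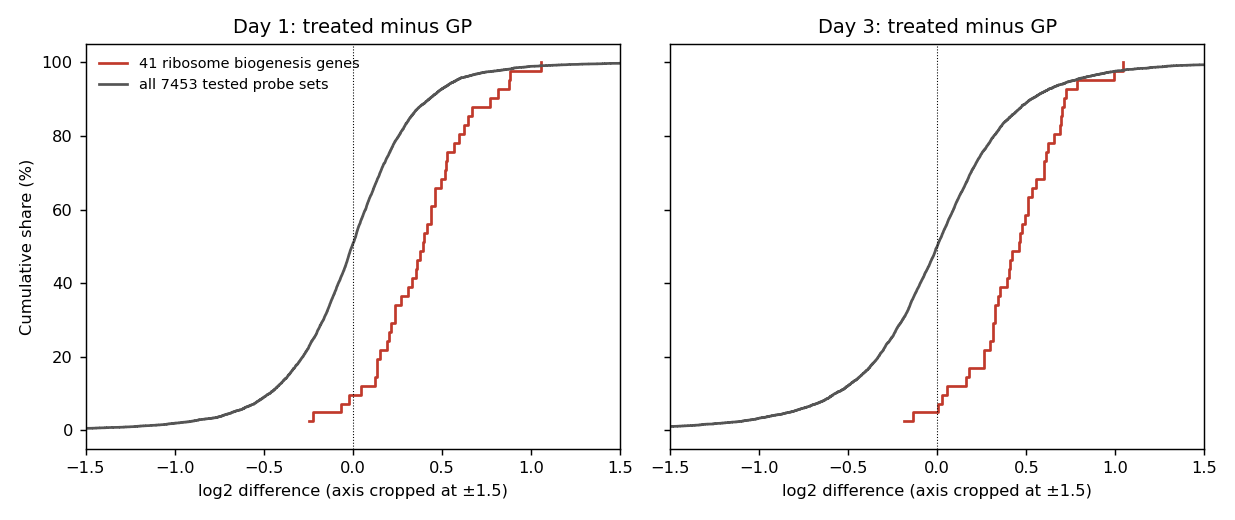
Cumulative share (%, vertical axis) of log2 differences, treated minus GP (horizontal axis, cropped at ±1.5), at day 1 (left) and day 3 (right); red steps are the 41 ribosome biogenesis genes and grey steps all 7453 tested probe sets. The red curve lies right of the grey one over most of its length, with medians of 0.40 at day 1 and 0.46 at day 3.

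Single genes past the test were few in the fit without the prep number, and more with it as a block. limma's test with Benjamini-Hochberg adjustment over all 7453 probe sets at 0.05 called 2 of the 41 higher at day 1, where 0.295% of all probe sets were called higher, and 5 at day 3, where 2.03% were. None of the 41 was called lower at either day. With the prep number as a block, the calls were 5 at day 1 (background 2.07%) and 15 at day 3 (background 6.84%). The 3 treated values lay above the 3 GP values for 16 genes at day 1, against 8.44% of all probe sets, and for 15 genes at day 3, against 10.5%. The groups separated in this way at both days for 11 genes, against 3.45% of all probe sets: Dcaf13, Ddx56, Fbl, Gnl3, Nhp2, Nip7, Nop56, Rrp9, Rrs1, Surf6 and Wdr74.

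**Figure D2:**
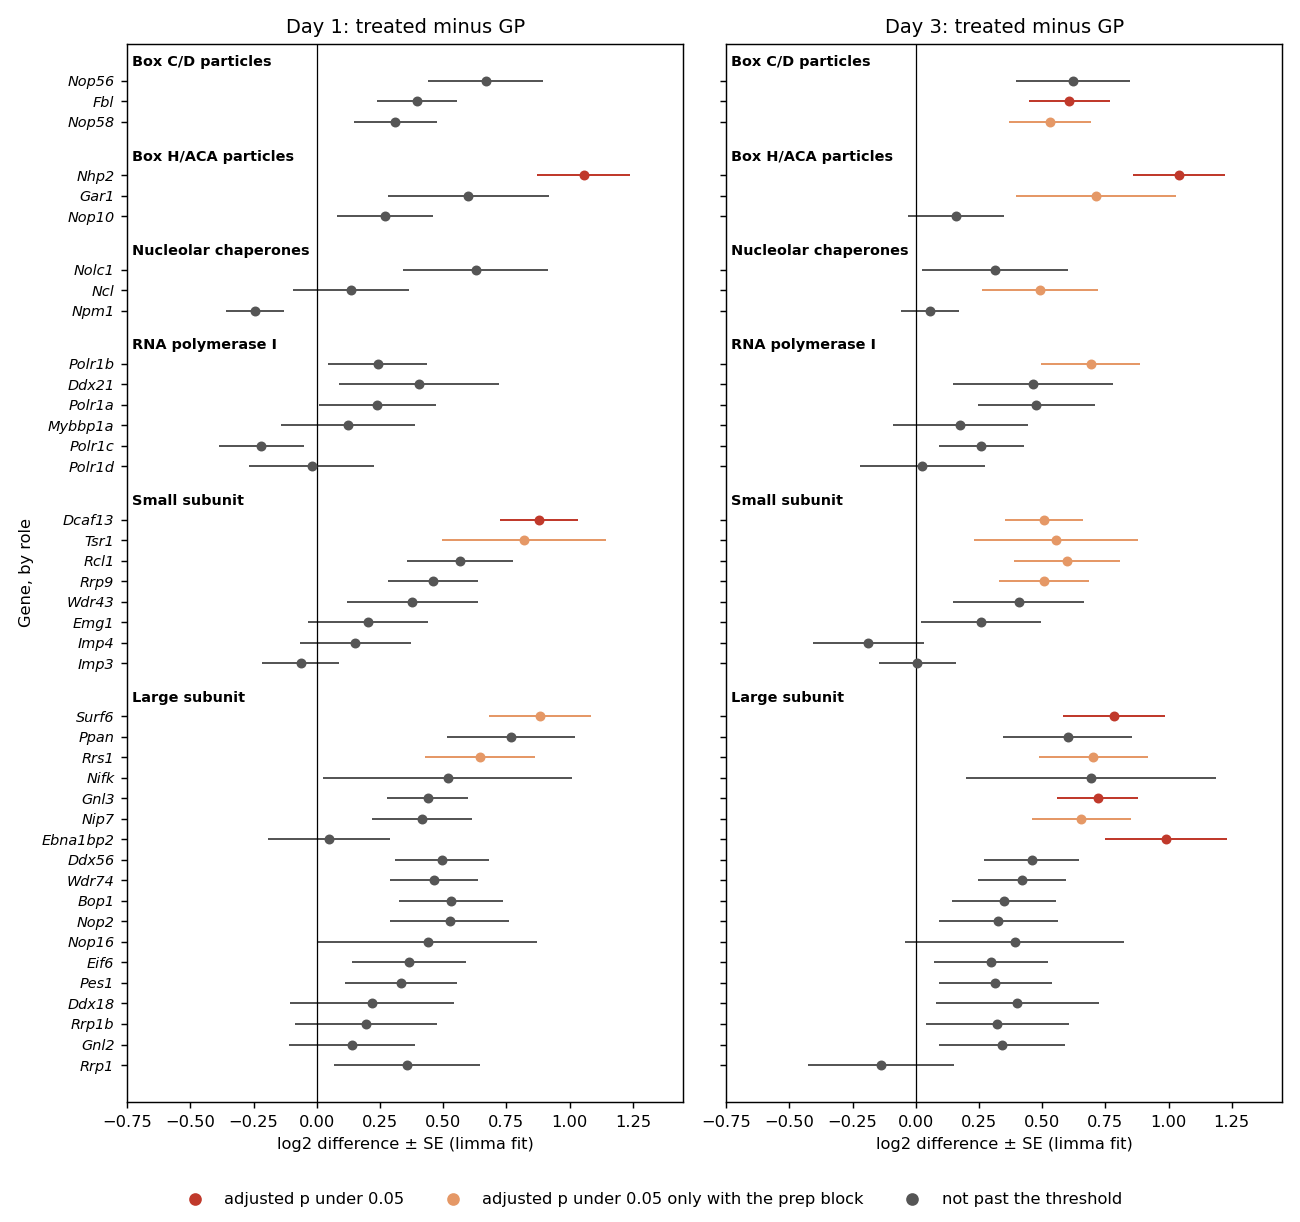
Log2 difference ± SE from the limma fit, treated minus GP (horizontal axis), for each of the 41 genes (vertical axis, by role) at day 1 (left) and day 3 (right). Red points passed the adjusted threshold, orange points passed it only with the prep block, and grey points did not; Nhp2 is red at both days, with 1.06 at day 1 and 1.04 at day 3.

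Among the core proteins of the box H/ACA particles, Nhp2 stood at the top of the whole set. Nhp2 had 730.7, 1015 and 869.5 intensity units in treated day 1 cultures of preps 1, 2 and 3, against 388.3, 395.6 and 467.6 in GP day 1 cultures. At day 3 it had 711.5, 922.4 and 976.8 units in treated cultures, against 335.2, 431.4 and 508.9 in GP cultures. Every treated value lay above every GP value, and the medium day 0 arrays, at 428.9, 416.6 and 352.1 units, lay among the GP ones. The log2 difference was 1.06 ± 0.18 (SE, adjusted p = 0.0166, limma) at day 1 and 1.04 ± 0.18 (adjusted p = 0.00700, limma) at day 3, or 2.08-fold and 2.06-fold. Gar1, another core protein, had log2 differences of 0.60 at day 1 and 0.71 at day 3, and passed the test only at day 3 with the prep block (adjusted p = 0.0131, limma). Nop10, the smallest of the core proteins, had 0.27 and 0.16 and did not pass at either day.

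The box C/D core proteins were above 0 at both days, with medians of 0.40 at day 1 and 0.61 at day 3. Fbl, the methyltransferase of the particle, had 603.8, 601.1 and 674.4 units in treated day 1 cultures, against 480.4, 415.1 and 538.5 in GP day 1 cultures. It had 659.4, 812.1 and 933.6 units in treated day 3 cultures, against 463.6, 527.5 and 577.8 in GP day 3 cultures. The groups did not overlap at either day, and the day 3 log2 difference of 0.61 ± 0.16 passed the test (adjusted p = 0.0479, limma) while that of day 1, 0.40 ± 0.16, did not (adjusted p = 0.334, limma). Nop56 had differences of 0.67 and 0.62 with no overlap of groups at either day, and did not pass the test at either. Nop58 had 0.31 and 0.53 and passed only at day 3 with the block (adjusted p = 0.00770, limma).

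The nucleolar chaperones had differences of both signs at day 1. Npm1, or nucleophosmin, a chaperone of the granular nucleolus, had 2787, 2597 and 2550 units in treated day 1 cultures, against 2833, 3113 and 3476 in GP day 1 cultures. All treated values lay below all GP values, the only such case among the 41 genes at that day, against 8.63% of all probe sets, but the difference of -0.24 ± 0.11 did not pass the test (adjusted p = 0.440, limma). At day 3 Npm1 had a difference of 0.06 and the groups overlapped. Ncl, or nucleolin, had 0.13 at day 1 and 0.49 at day 3, and passed at day 3 with the block only (adjusted p = 0.00926, limma). Nolc1, which binds small nucleolar ribonucleoproteins, had 0.63 at day 1 and 0.31 at day 3 and did not pass at either.

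Genes of RNA polymerase I and its transcription had the lowest median among the larger role groups at day 1, at 0.18 over 6 genes, and 0.36 at day 3. None of the 6 passed the test in the fit without the block. Polr1b, the second-largest subunit of the enzyme, had 145.9, 192.1 and 168.3 units in treated day 3 cultures, against 116.7, 102.7 and 93.5 in GP day 3 cultures. These groups did not overlap, and its log2 difference of 0.69 ± 0.20 passed with the prep block only (adjusted p = 0.0679 without and 0.0274 with the block, limma). Polr1a, the largest subunit, had 0.24 at day 1 and 0.48 at day 3. Polr1c and Polr1d, subunits shared with RNA polymerase III, had -0.22 and -0.02 at day 1, and 0.26 and 0.03 at day 3. A further probe set of Polr1c gave -0.44 at day 3, opposite in sign. Mybbp1a, a Myb-binding nucleolar protein, had 0.12 and 0.18, and its further probe set gave -0.32 at day 3. Ddx21, an RNA helicase, had 0.40 at day 1 and 0.46 at day 3.

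Small-subunit factors had medians of 0.42 at day 1 and 0.46 at day 3 over 8 genes. Dcaf13, a WD-repeat protein whose yeast counterpart Sof1 acts in the small-subunit processome, had 324.7, 353.4 and 339.8 units in treated day 1 cultures, against 184, 175.9 and 193.5 in GP day 1 cultures. At day 3 it had 290.4, 217.2 and 249.4 units in treated cultures, against 161.3, 157.9 and 214.7 in GP cultures. The groups stayed apart at both days, more widely at day 1. The log2 difference was 0.88 ± 0.15 (adjusted p = 0.0166, limma) at day 1, and 0.51 ± 0.15 at day 3, where it passed with the block only (adjusted p = 0.0841 without and 0.0273 with the block, limma). Tsr1, which acts late on the small-subunit precursor, had 0.82 at day 1 and 0.55 at day 3 and passed with the block only (adjusted p = 0.0126 and 0.0389, limma). Rcl1 and Rrp9, both tied to the U3 particle in yeast, passed at day 3 with the block only, with differences of 0.60 and 0.51 (adjusted p = 0.0356 and 0.0404, limma). Wdr43, a processome protein, had 0.38 and 0.41, and Emg1, a methyltransferase of small-subunit RNA, had 0.20 and 0.26.

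The U3 proteins Imp3 and Imp4 stood apart from these. Imp3 had a difference of -0.06 at day 1 and 0.00 at day 3, and Imp4 had 0.15 and -0.19, with overlapping groups throughout. Imp3 was instead higher by day: it had 624.5, 763.2 and 813.7 units in treated day 3 cultures, against 549.3, 532.1 and 428.7 in treated day 1 cultures. That difference of 0.54 ± 0.15 passed with the block only (adjusted p = 0.212 without and 0.0368 with the block, limma). Imp3 was the only 1 of the 41 genes called there with the block, where 3.84% of all probe sets were called higher or lower. A single call is thus no more than the background. In GP cultures Imp3 differed by 0.47 ± 0.15 between day 3 and day 1, which did not pass (adjusted p = 0.360, limma), although the groups did not overlap.

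Large-subunit factors were the largest group, with 18 genes, of which 18 were above 0 at day 1 and 17 at day 3, with medians of 0.44 and 0.41. Surf6, a nucleolar protein whose yeast counterpart acts on large-subunit precursors, had 70, 76.9 and 63.4 units in treated day 1 cultures, against 36.3, 31.8 and 47.2 in GP day 1 cultures. At day 3 it had 74.5, 78.9 and 73.9 units in treated cultures, against 40.6, 41.6 and 50.4 in GP cultures. The 6 treated arrays were the 6 highest of the 15, since medium cultures had 46.2, 45.2 and 45.5 units. Surf6 passed the test at day 3, with 0.78 ± 0.20 (adjusted p = 0.0463, limma), and at day 1, with 0.88 ± 0.20, only with the block (adjusted p = 0.0580 without and 0.0253 with the block, limma).

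Gnl3, or nucleostemin, a nucleolar GTP-binding protein, had 182, 175.8 and 174.2 units in treated day 3 cultures, against 108.6, 97.5 and 117.7 in GP day 3 cultures. The groups lay far apart compared with their spread, and the log2 difference of 0.72 ± 0.16 passed (adjusted p = 0.0235, limma). At day 1 it had 160.2, 128.4 and 147.4 units in treated cultures, against 121.7, 100.2 and 100 in GP cultures, a difference of 0.44 ± 0.16 that did not pass (adjusted p = 0.281, limma).

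Ebna1bp2, whose yeast counterpart Ebp2 is needed for large-subunit assembly, had a different course. Its treated day 1 cultures had 87.1, 82.6 and 75 units, against 79.1, 82.8 and 74.6 in GP day 1 cultures, and the groups overlapped, with a log2 difference of 0.05 ± 0.24. At day 3 it had 119.2, 115.5 and 102.2 units in treated cultures, against 43.2, 71 and 58.6 in GP cultures, a difference of 0.99 ± 0.24 (adjusted p = 0.0336, limma). Set against day 1, the treated day 3 arrays were all higher and the GP day 3 arrays all lower, but neither difference passed the test (adjusted p = 0.668 in treated and 0.809 in GP cultures, limma). The medium day 0 arrays had 63, 114.9 and 66 units, a wide spread that overlapped every group. The day 3 difference minus the day 1 difference was 0.94 ± 0.34, the largest among the 41 genes, and was not called (adjusted p = 1.00, limma).

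Of the other large-subunit factors, Rrs1, which takes part in bringing the 5S particle into the precursor, had 253.9, 240.8 and 266.1 units in treated day 1 cultures, against 157.6, 122.8 and 219.6 in GP day 1 cultures. The groups did not overlap, and Rrs1 passed at both days with the block only, with differences of 0.65 (adjusted p = 0.0307, limma) and 0.70 (adjusted p = 0.00926, limma). Nip7 had 0.42 and 0.65 and passed at day 3 with the block only (adjusted p = 0.0325, limma). Ppan had 0.77 and 0.60, and Nop2, a methyltransferase of large-subunit RNA, had 0.53 and 0.33; neither passed at either day. Bop1 and Pes1, partners in a complex that also holds Wdr12, had 0.53 and 0.33 at day 1, and 0.35 and 0.31 at day 3, and did not pass. Eif6, which keeps the subunits from joining too early, had 0.36 and 0.30. Ddx56, an RNA helicase, had 0.50 and 0.46, and Wdr74 had 0.46 and 0.42, with groups that did not overlap at either day, and neither passed. Nifk, Nop16, Ddx18, Rrp1b and Gnl2 had differences above 0 at both days with overlapping groups, from 0.14 for Gnl2 to 0.52 for Nifk at day 1 and from 0.32 for Rrp1b to 0.69 for Nifk at day 3. Rrp1 had 0.36 at day 1 and -0.14 at day 3, the only large-subunit gene below 0 at that day.

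**Figure D3:**
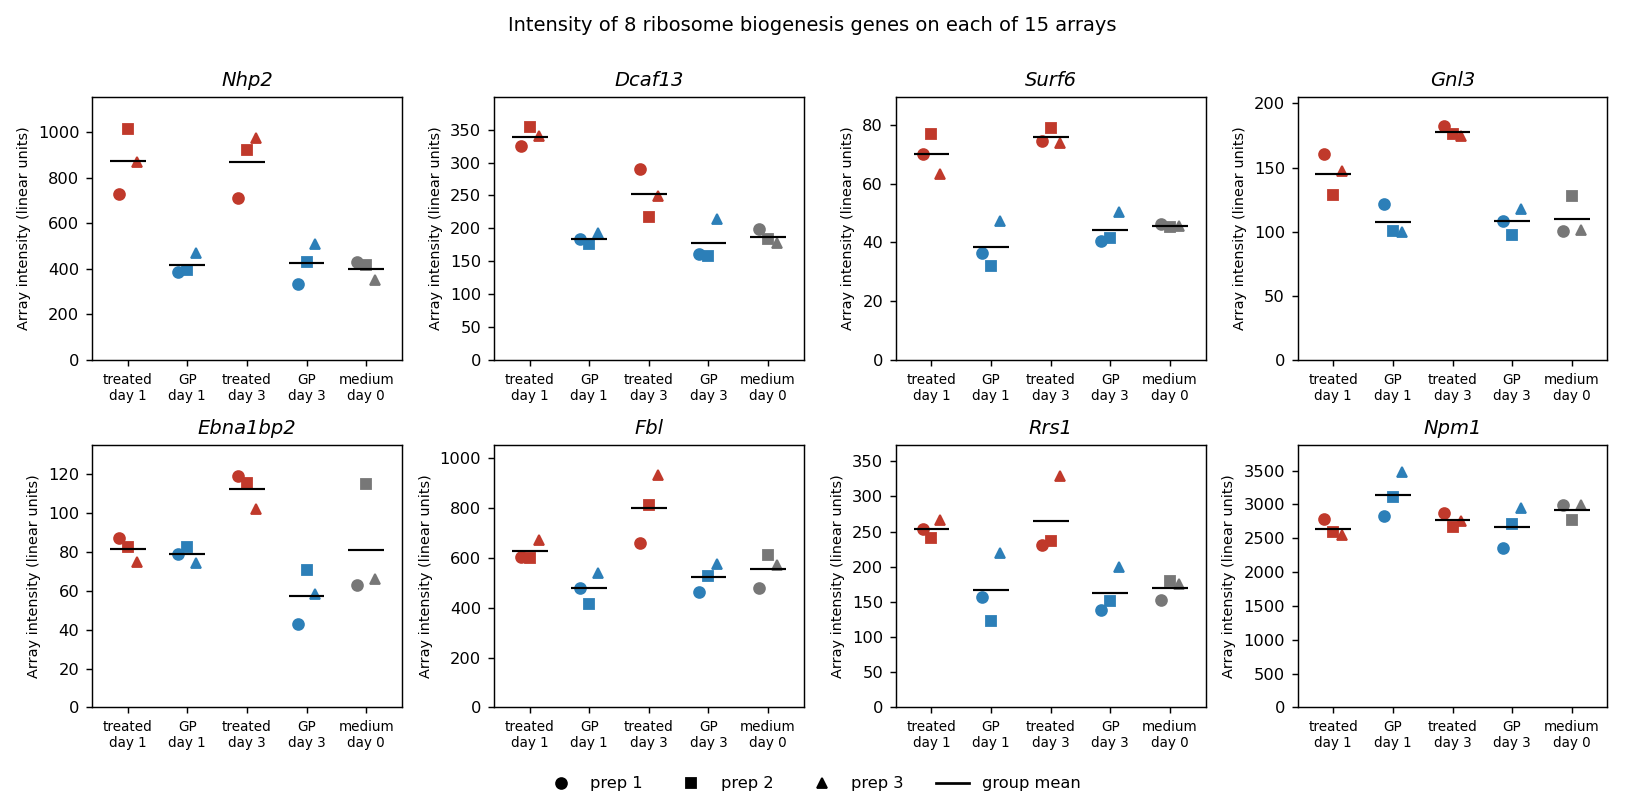
Array intensity (linear units, vertical axes from 0) of 8 ribosome biogenesis genes on each of 15 arrays; circles, squares and triangles are preps 1, 2 and 3, lines are group means, and treated groups (red) stand left of the GP groups (blue) of the same day, with medium day 0 (grey) last. Surf6 had 63.4 to 78.9 units on the 6 treated arrays and at most 50.4 on the others, while Npm1 was lower in treated than in GP cultures at day 1.

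In the fit without the prep block, calls against GP on 3 arrays a group rested on single arrays, except for Nhp2 at day 3. Leaving out 1 array in that fit also left the preps unbalanced between the groups. At day 1, leaving out the treated prep 2, GP prep 1 or GP prep 2 array left 0 genes called, with adjusted p for Nhp2 of 0.0906, 0.0697 and 0.0842 and for Dcaf13 of 0.0875, 0.0697 and 0.0894 (limma). At day 3, Nhp2 stayed past the threshold without any 1 of the 6 arrays (adjusted p of at most 0.0343, limma). It did not pass without all arrays of prep 1 or of prep 2 (adjusted p = 0.0985 and 0.270, limma). The number of genes called at day 3 was 2, 1 and 1 without the treated array of prep 1, 2 or 3. It was 1, 2 and 9 without the GP array of prep 1, 2 or 3. The last of these is the array with the actin ratio of 2.11. Without it the day 3 median was 0.62 in the fit without the block, where prep 3 then stood only on the treated side. With the block, 16 genes were called without that array, and the median was lower than 0.62 but still above the 0.46 of all arrays. No share of all probe sets called is given for the fits with arrays left out, so their counts have no background. Fbl was called at day 3 without GP prep 3 or treated prep 1 (adjusted p = 0.0471 and 0.0362, limma), Surf6 without GP prep 3 (adjusted p = 0.0428, limma), Gnl3 without GP prep 3 (adjusted p = 0.0272, limma) and Ebna1bp2 without GP prep 2 (adjusted p = 0.0452, limma), and none of these 4 passed when any other of the 6 arrays was left out.

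GP and medium cultures had pooled median differences near 0 for these genes, but the preps differed in direction. Within preps 1, 2 and 3 the medians were -0.05, -0.19 and 0.13 for GP day 1 against medium day 0. For GP day 3 against medium day 0 they were -0.19, -0.22 and 0.25, with 14, 10 and 32 of 41 genes above 0. GP day 1 against medium day 0 had a median log2 difference of -0.04 with 0 of 41 called, where 0.242% of all probe sets were called by limma. GP day 3 against medium day 0 had a median of -0.02 with 0 called, where 0% of all were. GP day 3 against GP day 1 had a median of 0.01 with 0 called, against 0.711% of all probe sets, and treated day 3 against treated day 1 had 0.08 with 0 called, against 0.148%. At an unadjusted p under 0.05, limma had 0, 0, 1 and 3 of the 41 genes in these comparisons in the same order, against 3.46%, 4.19%, 6.43% and 8.29% of all probe sets, so these counts were at or below the background. A p that misses the threshold does not show that the levels were equal. Among the genes nearest the threshold, Eif6 had -0.30 ± 0.23 and Imp4 0.35 ± 0.22 in GP day 1 against medium, and Polr1a had -0.39 ± 0.23 in GP day 3 against GP day 1. In GP day 3 against medium, Ebna1bp2 had -0.47 ± 0.24 and Eif6 -0.39 ± 0.23. Dcaf13 had -0.44 ± 0.15 in treated day 3 against treated day 1, with groups that did not overlap (adjusted p = 0.373, limma).

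The comparison of treated day 3 with medium day 0 cultures used the same treated arrays as that with GP day 3. Here 38 of 41 differences were above 0, with a median of 0.46, and 19 genes had all treated values above all medium values, against 10.6% of all probe sets. limma called 3 genes higher, against 1.13% of all probe sets, and 14 with the block, against 5.65%. Nhp2 had 1.12 ± 0.18 (adjusted p = 0.00582, limma), Nop58 0.71 ± 0.16 and Gnl3 0.70 ± 0.16 (adjusted p = 0.0348 for both, limma). Nop58 had 226.8, 233.2 and 275.7 units in treated day 3 cultures, against 142.8, 147.1 and 157.2 in medium cultures. Nhp2 was called without any 1 of the 6 arrays, Gnl3 only without medium prep 2 (adjusted p = 0.0383, limma), and Nop58 in none of the 6 (adjusted p of 0.0615 to 0.127, limma). Without all arrays of prep 2, Nhp2 was not called (adjusted p = 0.244, limma).

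No day-by-treatment difference was called. For the day 3 difference minus the day 1 difference, limma called 0 of the 41 genes and 0% of all probe sets, and 1 gene, Ebna1bp2, had an unadjusted p under 0.05, against 3.62% of all probe sets. After Ebna1bp2 the smallest p belonged to Polr1c, at 0.48 ± 0.24, Npm1, at 0.30 ± 0.16, Dcaf13, at -0.37 ± 0.22, Polr1b, at 0.45 ± 0.28, and Gnl3, at 0.28 ± 0.23.

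Across the 5 groups, treated day 3 had the highest mean for 27 genes, treated day 1 for 12, GP day 1 for 1, GP day 3 for 0 and medium day 0 for 1. In 33 genes the treated groups were the 2 highest. These counts have no share over all probe sets beside them and only describe the 41 genes. The median log2 deviation of the 41 genes from their own means was 0.18, 0.13 and 0.33 in treated day 1 cultures of preps 1, 2 and 3, against -0.25, -0.33 and 0.02 in GP day 1 cultures. It was 0.12, 0.27 and 0.49 in treated day 3 cultures, against -0.33, -0.26 and 0.07 in GP day 3 cultures, and -0.18, -0.08 and -0.16 in medium cultures. Prep 3 was the highest of the preps in all 4 treated and GP groups, so pooled over preps the deviations of treated prep 2 at day 1 and GP prep 3 at day 3 lay close together. Its arrays also had the most values at the floor, and the part of that in these deviations was not tested.

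**Figure D4:**
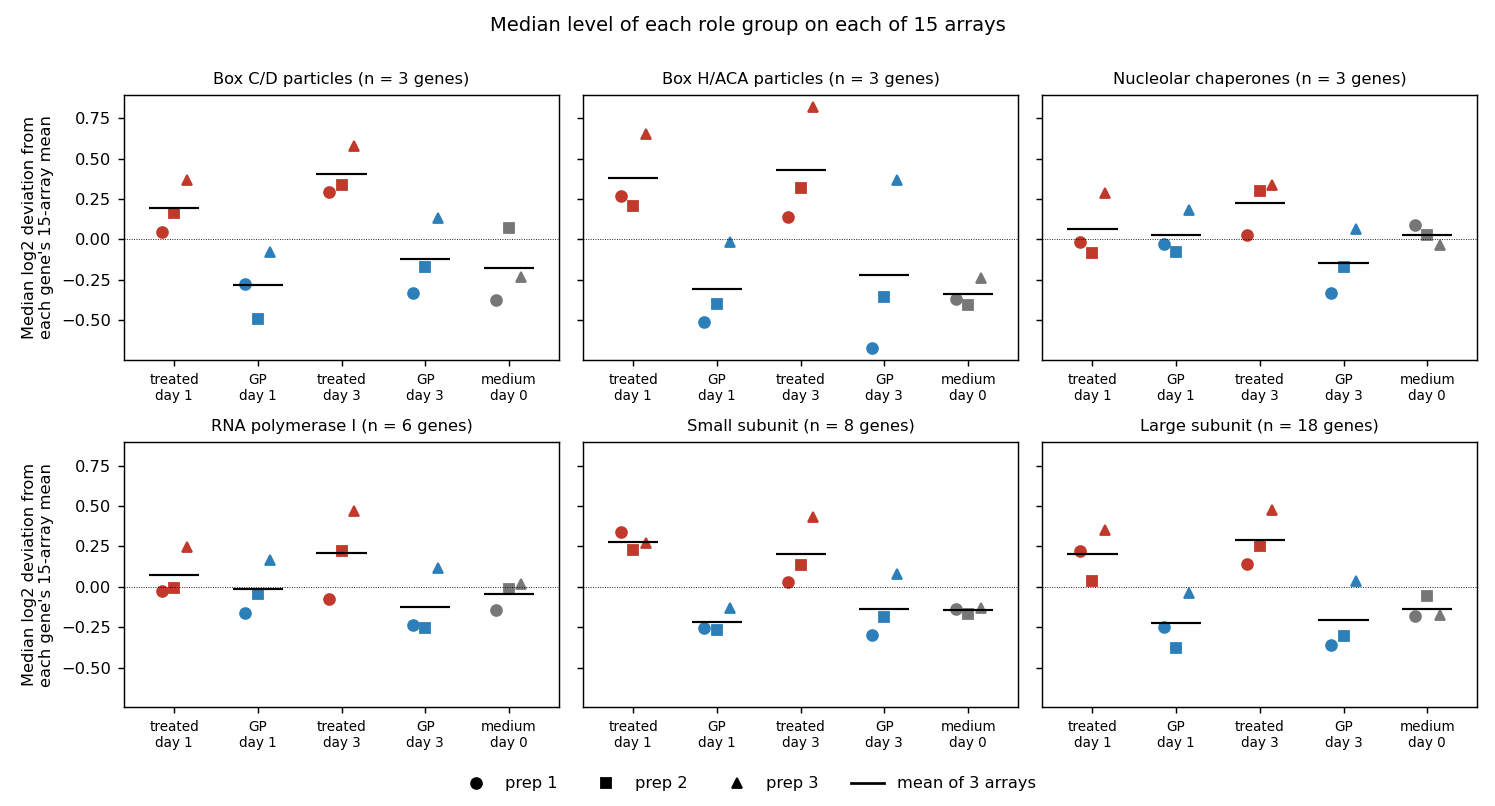
Median log2 deviation of the genes of each role from each gene's mean over 15 arrays (vertical axis) on every array, by group (horizontal axis, treated left of GP); circles, squares and triangles are preps 1, 2 and 3 and lines are means of 3 arrays. Large-subunit genes ran from 0.04 to 0.48 on treated arrays and from -0.38 to 0.04 on GP arrays, and prep 3 was often the highest.

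Differences between groups took a median share of 43.9% of a gene's variance over the 15 arrays, and differences between preps 19.5%. Over all 7453 tested probe sets the median shares were 31.1% and 26.7%. Groups hold 4 of the 14 degrees of freedom and preps 2, so the group share is on average the larger even where neither has an effect, and the shares are given as a description. Surf6 had a group share of 89.6%, Nhp2 of 89.1% and Dcaf13 of 88.9%. The largest prep share was 75.8%, for Ddx18, followed by 70.2% for Nop16, 70.1% for Polr1d and 69.8% for Nifk, a partner of the Ki-67 protein. Nop16 had 645.9 and 435.2 units on the treated and GP day 1 arrays of prep 3, against 309.1 to 334.5 and 237.6 to 259.1 in preps 1 and 2. The probe sets used for Nop16, Nop58, Polr1b and Mybbp1a carry the manufacturer's mark for sequence shared with other transcripts, so their signal may include another gene's.

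Other genes of the pathway had smaller median differences. A list of 122 further ribosome biogenesis genes held 71 with a probe set and 65 past the filter, and limma called 0 of the 65 at either day, with 7 at day 1 and 8 at day 3 higher at an unadjusted p under 0.05, against 5.33% and 8.59% of all probe sets. Of these, 53 were above 0 at day 1, with a median of 0.21, and 54 at day 3, with a median of 0.20. With the block, Pno1 passed at day 1, and Pno1, Brix1, Ruvbl1, Rpf2 and Ltv1 passed at day 3, which is near the background of 2.07% at day 1 and 6.84% at day 3. Pno1, which binds the small-subunit precursor, had 298.7, 234.8 and 286.7 units in treated day 1 cultures, against 197.5, 155.9 and 151.7 in GP day 1 cultures, a difference of 0.70. A list of cytosolic ribosomal protein genes, made after the data were seen, held 26 past the filter, with medians of -0.13 at day 1 and 0.04 at day 3, and limma called 0 at either day (1 lower at day 1 and 0 at day 3 at an unadjusted p under 0.05, against 5.97% and 8.12% of all probe sets).

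Myc itself had similar values in treated and GP cultures at day 1. It had 104.9, 98 and 124.5 units in treated day 1 cultures, against 97.8, 79.1 and 145.2 in GP day 1 cultures, a log2 difference of 0.06 ± 0.28. At day 3 it had 161.1, 183.5 and 317 units in treated cultures, against 98.4, 95.2 and 140.8 in GP cultures. These groups did not overlap, and the difference of 0.94 ± 0.28 passed with the block only (adjusted p = 0.0795 without and 0.00150 with the block, limma). The day 3 difference minus the day 1 difference was not called (0.88 ± 0.40, adjusted p = 1.00, limma). Of its partners and antagonists, Max had 0.06 and 0.06, Mlx 0.45 and 0.22, Mnt -0.21 and -0.17, Mxi1 -0.44 and -0.02, and Mxd4 -0.20 and 0.31 at days 1 and 3, and none of these passed. Mxd3 had 0.16 and 1.03 and passed at day 3 with the block only (adjusted p = 0.0479, limma), with overlapping groups. From day 1 to day 3, Mxd3 differed by -1.49 in GP cultures, which passed with the block only (adjusted p = 0.0307, limma). In treated cultures it differed by -0.63, which did not pass. Mxd1, Mycl and Mycn were under the signal filter, and Mga is not analysed here.

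Promoter windows of 300 bases, 250 before and 50 after the annotated start, were taken from RefSeq on assembly GRCm38.p6. They covered 34 of the 41 genes in 35 windows. The 6 letters CACGTG, an E-box that Myc and Max can bind and which reads the same on both strands, were in 6 windows, or 17.1%, against 10.4% of 5911 windows of tested genes and 7.15% of all 32851 windows. They lay in the windows of Imp4, Mybbp1a, Nop2, Pes1, Tsr1 and Wdr43. The 7 letters CCGGAAG, a core that ETS factors can bind, searched on both strands, were in 12 windows, or 34.3%, against 17.6% of tested-gene windows and 8.86% of all. The GC box GGGCGG was in 65.7%, against 63.2% and 35.7%; AAGATGG was in 5.71%, against 7.09% and 6.34%; and TATAAA was in 5.71%, against 7.58% and 13.6%. A window counted once however many matches it held, so overlaps between motifs changed no count, and a match is a description of letters, not a site.

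The 6 genes with an E-box had median differences of 0.36 at day 1 and 0.32 at day 3, and the 28 without had 0.41 and 0.48. The 12 with the ETS letters had 0.56 and 0.58, and the 22 without had 0.32 and 0.43. These are descriptions over few genes, with no test. Of the 6 genes called against GP at either day, Nhp2, Surf6, Ebna1bp2 and Gnl3 have a window and Dcaf13 and Fbl have none here. Those 4 windows, and that of Tsr1, which holds both motifs, are shown 5′ to 3′ in the gene's direction with CCGGAAG or its reverse complement CTTCCGG, and CACGTG, in capitals. They lie at chr11:51619523-51619822 on the plus strand, chr2:26902838-26903137 on the minus strand, chr4:118620549-118620848 on the plus strand, chr14:31019082-31019381 on the minus strand and chr11:74897830-74898129 on the plus strand.
Nhp2: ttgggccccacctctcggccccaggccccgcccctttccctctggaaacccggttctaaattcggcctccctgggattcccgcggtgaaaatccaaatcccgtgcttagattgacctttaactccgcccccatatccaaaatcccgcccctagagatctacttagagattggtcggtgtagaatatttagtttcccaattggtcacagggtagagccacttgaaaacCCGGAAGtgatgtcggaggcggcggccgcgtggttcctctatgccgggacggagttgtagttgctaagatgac
Surf6: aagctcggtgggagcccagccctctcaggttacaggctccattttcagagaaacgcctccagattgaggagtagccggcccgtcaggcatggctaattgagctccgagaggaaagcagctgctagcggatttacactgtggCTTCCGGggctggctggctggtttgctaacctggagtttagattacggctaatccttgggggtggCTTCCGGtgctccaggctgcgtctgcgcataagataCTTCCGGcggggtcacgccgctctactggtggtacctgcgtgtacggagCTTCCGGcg
Ebna1bp2: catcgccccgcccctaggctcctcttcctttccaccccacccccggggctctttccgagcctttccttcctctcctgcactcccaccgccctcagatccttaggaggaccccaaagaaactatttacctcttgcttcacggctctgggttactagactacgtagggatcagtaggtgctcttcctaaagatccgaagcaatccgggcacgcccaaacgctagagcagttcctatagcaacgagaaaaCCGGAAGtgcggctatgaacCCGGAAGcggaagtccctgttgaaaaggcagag
Gnl3: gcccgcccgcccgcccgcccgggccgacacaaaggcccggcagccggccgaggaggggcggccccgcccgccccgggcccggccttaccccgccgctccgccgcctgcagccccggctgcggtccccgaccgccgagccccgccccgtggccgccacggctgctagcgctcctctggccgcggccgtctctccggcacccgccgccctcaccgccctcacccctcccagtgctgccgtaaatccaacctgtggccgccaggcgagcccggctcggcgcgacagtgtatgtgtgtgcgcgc
Tsr1: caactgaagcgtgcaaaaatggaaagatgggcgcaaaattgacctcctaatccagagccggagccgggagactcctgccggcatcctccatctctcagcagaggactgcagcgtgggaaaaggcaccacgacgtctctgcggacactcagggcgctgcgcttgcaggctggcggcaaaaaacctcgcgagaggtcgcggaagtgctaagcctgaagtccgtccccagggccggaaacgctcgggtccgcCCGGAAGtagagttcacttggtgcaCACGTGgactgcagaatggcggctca
Counted from the annotated start, the ETS letters began at base -23 in Nhp2, at -3 and 18 in Ebna1bp2, and at -1 in Tsr1, whose E-box began at base 25. The Gnl3 window holds neither motif. Surf6 held 4 copies, all in the reverse orientation relative to the gene, the first at base -109.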

How the data were processed

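The deposited table holds a linear intensity for each of 12488 probe sets on 15 arrays. After trimming below the 2nd and above the 98th percentile, all array means were 150.0, so the arrays were already scaled; the software and scaling used by the authors are not given in the sources used here. Values under 2.8, the 10th percentile, were set to 2.8 and log2 was taken. Control probe sets, 66 in number, were left out, as were those of the rest whose mean signal lay below the 40th percentile, 22.3, leaving 7453. Gene names came from the platform annotation, from probe sets with 1 symbol (10833), several (396) or none (1193). The number of arrays limits the precision.

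All arrays entered a single limma 3.58.1 fit in R 4.3.3 (lmFit, eBayes with a mean trend) with a coefficient for every group (10 residual degrees of freedom), and p-values were adjusted by Benjamini-Hochberg over all 7453 probe sets and called at 0.05. Errors are standard errors of the fit, and folds are on the floored log2 scale. The fit without the block was tested on simulated data drawn independently for each array, with no prep effect. That test therefore does not cover samples paired by prep. No arrays were identical.

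Prep numbers come from the labels. Deviations from group means correlated at 0.19 to 0.70 between arrays of the same number (30 pairs) and -0.57 to 0.26 between different numbers, and 15 of 15 arrays correlated best with their own number, so the numbers pair the samples. The prep block was an alternative fit, as were other floors, filters, scalings and probe set choices and leaving out arrays.

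Members and lists were chosen with earlier results of these data known. Genes named with values were those called, those with the smallest p in each comparison, those furthest against the median, and those whose probe sets disagreed; other genes were chosen after their values were seen.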

Additional observations from a re-analysis of the deposited data

How the results depend on the processing

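The count of genes called moved with the fit more than the median did. Over named genes, 826 of 930 alternatives kept the direction and the side of the threshold, 82 lost it, 9 gained it and 13 changed direction. Most alternatives belonged to values that were not called and could not lose a call, so all 82 losses fell among called values. The called values stayed past the threshold in from 7 of 20 alternatives, for Surf6 at day 3, to 19 of 20, for Nhp2 against medium. Nhp2 and Dcaf13 at day 1 did so in 13 of 20. With the prep block the calls were 5 at day 1, 15 at day 3 and 14 for treated day 3 against medium. For treated day 3 against treated day 1 the block gave 1 call (Imp3), where 3.84% of all probe sets were called. The block changed no other call among the 41 genes. Scaling to a common median gave 0 at day 1, 2 at day 3 and 1 against medium, fitting only the groups compared gave 0, 0 and 1, and no filter gave 2 at day 3.

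Leaving out arrays or a whole prep gave 0 to 4 calls at day 1, 0 to 9 at day 3 and 0 to 2 against medium. The medians then ran from 0.28 to 0.45 at day 1, 0.33 to 0.62 at day 3, 0.37 to 0.47 for treated day 3 against medium, -0.10 to 0.16 for the day difference, -0.16 to 0.05 for GP day 1 and -0.15 to 0.06 for GP day 3 against medium, -0.11 to 0.13 for GP day 3 against day 1 and -0.03 to 0.17 for treated day 3 against day 1. With the block and without prep 3, both chosen after seeing the data, the calls were 6, 13 and 5, with a day 3 median of 0.53. With the block and without the GP day 3 array of prep 3 they were 16 at day 3. The medians of that fit were 0.55 at day 3 and 0.12 for the day difference. Apart from the prep block on all arrays, no share of all probe sets called is given for these alternatives, so their counts have no background.

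The 13 changes of direction were in values that did not pass the test, and the cause was not tested. Polr1d at day 1 was 0.018 with median scaling, 0.0017 and 0.020 without prep 1 or 2, 0.067 and 0.11 without treated prep 1 or 3, and 0.24 without GP prep 2, with a lowest value of -0.24 without treated prep 2. Imp3 at day 1 was 0.024 without GP prep 2 and 0.049 without treated prep 3. Rrp1 at day 3 was 0.13, 0.065 and 0.079 without GP prep 1, prep 1 or treated prep 3, with a lowest value of -0.41 without GP prep 3. Polr1c in the day difference was -0.28 with its other probe set, and Polr1a in GP day 3 against day 1 was 0.26 with the mean of its probe sets.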
